A study of Mus musculus with 36 samples.

Results

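Tribbles pseudokinases are the genes Trib1, Trib2 and Trib3, which were taken from the deposited count table by their symbols: 3 of the 36856 symbols in the table, followed across all 36 libraries. The libraries are bulk RNA-seq of mouse embryonic fibroblasts, cells grown from mouse embryos, of 2 genotypes, WT (wild type) and PERK -/- (without the kinase PERK, which starts the eIF2 alpha stress response in the ER). Cells of each genotype received the solvent DMSO, Tg (thapsigargin, which blocks the calcium pump of the endoplasmic reticulum, ER), BtdCPU (an activator of the eIF2 alpha kinase HRI), halofuginone (which inhibits prolyl-tRNA synthetase and so activates the kinase GCN2), BtdCPU with Tg, or halofuginone with Tg. Each of the 12 groups has 3 libraries. The title of the series sets the question, namely what activation of another stress kinase does in cells without PERK. Doses, treatment times, batches and the source of the replicates are not given in the labels. The p-values therefore measure only the spread between these libraries, which may be technical. Nothing in the labels says whether each genotype is more than 1 line, so genotype and cell line cannot be told apart.

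Tribbles proteins have the fold of a protein kinase but little or no normal catalytic activity. They act as scaffolds: the pseudokinase domain binds a substrate such as a C/EBP transcription factor, and the tail binds the ubiquitin ligase COP1, which marks that substrate for destruction. Trib1 and Trib2 are known above all for lowering C/EBP alpha through COP1 and for binding the kinase MEK1, while Trib3 is known as a target gene of ATF4 and CHOP in ER stress and amino acid shortage, and as a protein that binds AKT and feeds back on ATF4 and CHOP.

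Library totals ran from 32454257 to 37178107 counts. Eif2ak3, the gene of PERK, was lower in the PERK -/- libraries than in the WT libraries under each of the 6 treatments, for example 9.95 ± 0.760 against 31.1 ± 1.10 CPM (SD, n = 3) in DMSO. CPM stands for counts scaled to a common library size, with library totals adjusted by the TMM method. All 9 fibroblast markers were present, with a summed level of 13330 to 38710 CPM, while the summed levels of the epithelial, endothelial, blood and muscle markers stayed at or below 23.5, 5.33, 22.9 and 0.648 CPM. Neural markers summed to 10.3 to 226.9 CPM through Tubb3 alone. Epcam, Pecam1, Tek, Ptprc, Adgre1, Sox10 and Sox2 stayed below 1 CPM in every library. In 3 WT libraries the mean of 10 ATF4 target genes other than Trib3 lay furthest below that of the other replicates. Against the WT DMSO mean it was 2.15 log2 units in BtdCPU replicate 2 (2.93 and 2.72 in replicates 1 and 3), 2.44 in halofuginone replicate 3 (2.97 and 2.98 in replicates 1 and 2) and -0.44 in DMSO replicate 3 (0.15 and 0.29 in replicates 1 and 2).

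Promoter sequences are shown first. Trib3 and Trib2 moved in opposite directions in these cells, and whether their promoters have a part in that was not tested. RefSeq windows on GRCm38.p6, running from 250 bases before to 50 bases after the start site, were matched by symbol for 2 of the 3 genes, Trib3 and Trib2. The submitters' processing notes name GRCm39, so these positions belong to the sequence table and not to the counts. The 100 bases just before each start site read as follows, 5′ to 3′ on the strand of the gene, both on the minus strand. The Trib3 stretch is chr2:152344061-152344160 and the Trib2 stretch is chr12:15816786-15816885.
Trib3: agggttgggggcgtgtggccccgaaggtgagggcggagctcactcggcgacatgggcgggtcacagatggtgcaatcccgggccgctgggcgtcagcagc
Trib2: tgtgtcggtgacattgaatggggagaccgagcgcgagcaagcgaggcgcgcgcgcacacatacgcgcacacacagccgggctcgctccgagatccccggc

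The windows were searched on both strands for the core of the C/EBP-ATF response element, TGATGNAA, which heterodimers of ATF4 or CHOP with a C/EBP factor bind. Trib3 held 1 match, and the 30 bases around it, at chr2:152344028-152344057 on the minus strand, are shown with the match in capitals.
Trib3: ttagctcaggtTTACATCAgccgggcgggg
The match lies on the strand opposite to the gene, at bases 15 to 22 of the transcript. This core occurs in 3.97% of 32851 promoter windows of the same length. Trib2 had no match to these letters in its window. Neither gene held TGACGTGG, the XBP1 and ATF6 element found in 0.676% of windows, or the ER stress response element, found in 0.119%. The window of Trib3 was 58.3% G and C and that of Trib2 71.0%.

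Trib3, the stress-induced member, was lowest in DMSO and rose in all 3 single treatments in both genotypes. Its 3 WT DMSO libraries stood at 10.3, 18.9 and 6.62 CPM. With Tg they stood at 252.5, 233.0 and 187.8 CPM. With BtdCPU they stood at 313.1, 147.0 and 277.3 CPM. The 2 treated groups lay far above every DMSO library, and within BtdCPU it was replicate 2 that was low. Halofuginone gave 150.7, 166.3 and 91.8 CPM in WT cells, also without overlap with DMSO. The log2 differences from WT DMSO were 4.23 (SE 0.30, 18.7-fold, edgeR adjusted p = 7.47e-13) with Tg, 4.36 (SE 0.30, 20.5-fold, adjusted p = 3.18e-12) with BtdCPU and 3.51 (SE 0.29, 11.4-fold, adjusted p = 5.66e-12) with halofuginone. Without WT BtdCPU replicate 2, the BtdCPU difference was 4.62. These comparisons share their DMSO libraries.

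In PERK -/- cells the Tg response of Trib3 was smaller than in WT cells, while for the 2 compounds the difference between genotypes did not pass the threshold. The PERK -/- DMSO libraries stood at 14.0, 17.4 and 9.52 CPM, in the range of the WT ones. With Tg they reached 42.0, 48.6 and 30.4 CPM, above all DMSO libraries and below all WT Tg libraries. BtdCPU gave 170.8, 145.7 and 135.9 CPM and halofuginone 202.9, 207.7 and 169.8 CPM. Trib3 rose by 1.56 (SE 0.28, 2.95-fold, edgeR adjusted p = 5.03e-05) with Tg, 3.47 (SE 0.29, 11.1-fold, adjusted p = 1.24e-09) with BtdCPU and 3.83 (SE 0.30, 14.2-fold, adjusted p = 9.57e-12) with halofuginone, all as log2 differences. The response of PERK -/- cells minus that of WT cells was -2.66 (SE 0.39, adjusted p = 1.95e-06) for Tg. For BtdCPU it was -0.89 (SE 0.38, adjusted p = 0.422) and for halofuginone 0.32 (SE 0.38, adjusted p = 0.549), neither past the threshold of 0.05. The BtdCPU value was -1.15 (adjusted p = 0.0620) without WT BtdCPU replicate 2, and it passed the threshold when genes were not filtered on low counts (-0.88, adjusted p = 0.000167).

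The highest Trib3 levels of the series came from PERK -/- cells given both BtdCPU and Tg, at 343.9, 348.8 and 373.9 CPM. No other library of any group exceeded 313.1 CPM. Against Tg alone the log2 difference was 3.14 (SE 0.28, 8.82-fold, edgeR adjusted p = 5.00e-10) and against BtdCPU alone 1.24 (SE 0.26, 2.36-fold, adjusted p = 0.000957). With halofuginone and Tg the PERK -/- libraries stood at 219.3, 219.8 and 223.7 CPM, a rise of 2.46 (SE 0.28, adjusted p = 6.73e-09) over Tg alone. Against halofuginone alone the difference was 0.19 (SE 0.26, adjusted p = 0.815), although the groups did not overlap.

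In WT cells, where Tg alone already gave a high level, neither combination passed the threshold for Trib3. BtdCPU with Tg stood at 233.6, 204.3 and 202.6 CPM and halofuginone with Tg at 197.7, 227.1 and 138.1 CPM, both overlapping the Tg libraries. The log2 differences from Tg were -0.07 (SE 0.26, edgeR adjusted p = 0.924) and -0.26 (SE 0.26, adjusted p = 0.443). From the compound alone they were -0.20 (SE 0.26, adjusted p = 0.562) for BtdCPU and 0.46 (SE 0.26, adjusted p = 0.267) for halofuginone. The replicate numbers were treated as pairs of the WT libraries for halofuginone with Tg. In all 3 pairs Trib3 was lower than with Tg alone and higher than with halofuginone alone. With the replicate number as a block the differences were -0.27 (adjusted p = 0.395) and 0.47 (adjusted p = 0.202). Without a filter on low counts both passed (-0.30, adjusted p = 0.0442, and 0.45, adjusted p = 0.00311). The gain over Tg was larger in PERK -/- than in WT cells by 3.21 (SE 0.38, adjusted p = 2.84e-07) with BtdCPU and by 2.71 (SE 0.38, adjusted p = 1.31e-06) with halofuginone. Both of these values and the Tg interaction share the Tg libraries.

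**Figure D1:**
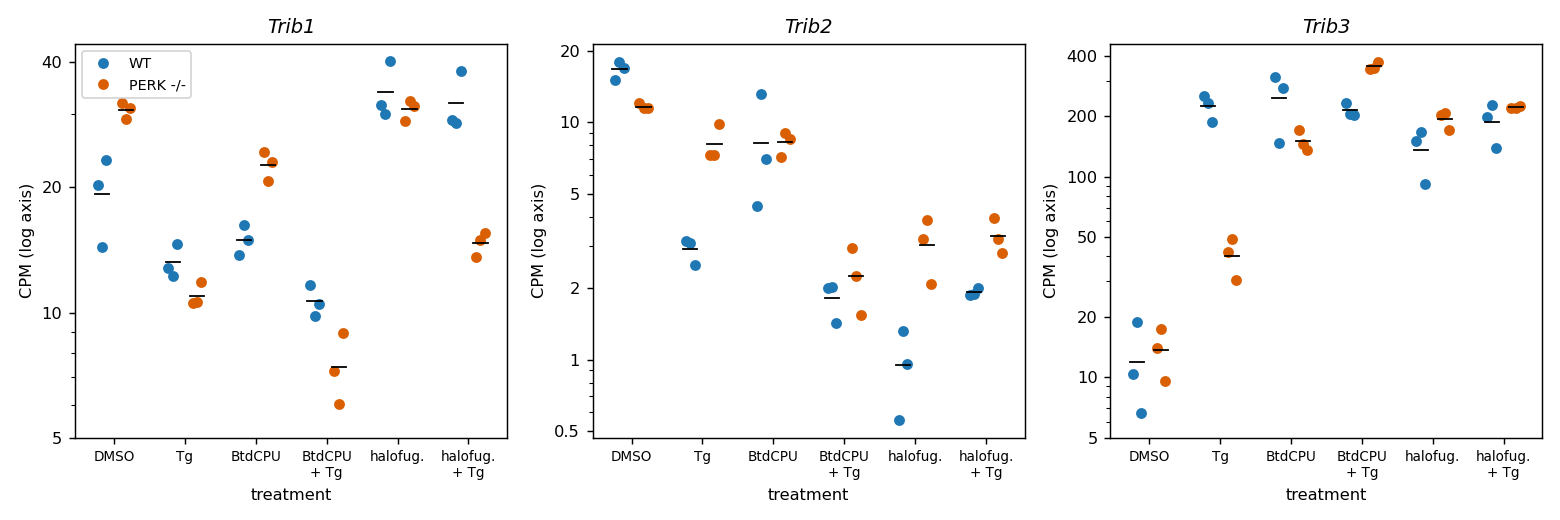
Level of Trib1, Trib2 and Trib3 in each of the 36 libraries, in CPM on a log axis, by treatment. Blue points are WT and orange points PERK -/- libraries, 3 per group, and the black line is the group mean. Trib3 was lowest in DMSO and highest in PERK -/- cells with BtdCPU and Tg (343.9 to 373.9 CPM), Trib2 was highest in WT DMSO (15.2 to 18.0 CPM), and Trib1 spanned the smallest range.

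Trib2 moved the other way from Trib3: it was highest in DMSO and fell furthest with halofuginone in WT cells. Its WT DMSO libraries stood at 15.2, 18.0 and 17.1 CPM. With Tg they fell to 3.16, 3.11 and 2.50 CPM. With halofuginone they fell to 0.557, 1.32 and 0.956 CPM, from 18, 45 and 31 counts, so that these 3 values are the least precise of the gene. The Tg and halofuginone groups lay wholly below DMSO, and the halofuginone group lay below every other group. The log2 differences were -2.52 (SE 0.28, 5.73-fold lower, edgeR adjusted p = 7.73e-09) for Tg and -4.14 (SE 0.31, 17.6-fold lower, adjusted p = 6.19e-13) for halofuginone.

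BtdCPU left Trib2 uneven between the WT libraries, at 4.45, 13.1 and 7.04 CPM. All 3 were below DMSO, and the highest was replicate 2. Trib2 fell by 1.03 (SE 0.26, edgeR adjusted p = 0.00437) on the log2 scale. This value was -1.54 (adjusted p = 2.10e-05) without WT BtdCPU replicate 2, and it did not pass without replicate 1 (-0.73, adjusted p = 0.0629) or in a fit of the BtdCPU and DMSO libraries only (-1.03, adjusted p = 0.0899).

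Loss of Trib2 was smaller in PERK -/- cells with Tg and with halofuginone. Its DMSO libraries there stood at 12.1, 11.5 and 11.5 CPM. Tg gave 7.26, 7.28 and 9.83 CPM and BtdCPU 7.17, 9.03 and 8.50 CPM. Neither group overlapped DMSO, yet the log2 differences of -0.52 (SE 0.26, edgeR adjusted p = 0.136) and -0.50 (SE 0.26, adjusted p = 0.366) did not pass. Halofuginone gave 3.21, 3.87 and 2.08 CPM, and Trib2 fell by 1.93 (SE 0.27, 3.82-fold lower, adjusted p = 9.51e-07). The PERK -/- minus WT response was 2.00 (SE 0.38, adjusted p = 7.64e-05) for Tg and 2.21 (SE 0.41, adjusted p = 0.000101) for halofuginone, and for BtdCPU 0.52 (SE 0.36, adjusted p = 0.654), or 1.04 (adjusted p = 0.0574) without WT BtdCPU replicate 2.

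With either compound added to Tg, Trib2 reached a low level in both genotypes. BtdCPU with Tg gave 2.01, 2.02 and 1.42 CPM in WT and 2.94, 2.26 and 1.54 CPM in PERK -/- cells. Halofuginone with Tg gave 1.88, 1.90 and 2.01 CPM in WT and 3.94, 3.22 and 2.81 CPM in PERK -/- cells. In PERK -/- cells Trib2 fell further than with Tg alone, by 1.85 (SE 0.28, edgeR adjusted p = 4.25e-06) with BtdCPU and by 1.29 (SE 0.27, adjusted p = 0.000169) with halofuginone. In WT cells the same differences were -0.68 (SE 0.29, adjusted p = 0.218) and -0.60 (SE 0.29, adjusted p = 0.0970). Neither passed, although the WT groups did not overlap and Trib2 was lower than with Tg in every pair of same-numbered libraries. The genotypes differed in the BtdCPU step by -1.17 (SE 0.40, adjusted p = 0.0366), a call lost when any of 8 of the 12 libraries involved was left out (-0.91 without PERK -/- BtdCPU with Tg replicate 3). For halofuginone the difference was -0.69 (SE 0.40, adjusted p = 0.191). Compared with the compound alone, Tg lowered Trib2 in BtdCPU-treated cells by 2.18 (SE 0.29, adjusted p = 3.41e-07) in WT and 1.87 (SE 0.28, adjusted p = 9.03e-06) in PERK -/-. In WT halofuginone-treated cells Trib2 was 1.02 higher with Tg (SE 0.33, adjusted p = 0.0318), from the lowest level in the series. That call was lost when any of 5 of the 6 libraries was left out, halofuginone replicate 2 being the exception (adjusted p from 0.0589 without halofuginone with Tg replicate 1 to 0.196 without halofuginone replicate 1, where the value was 0.74), and in a fit of the compared libraries only (1.04, adjusted p = 0.122). In PERK -/- cells the difference was 0.12 (SE 0.28, adjusted p = 0.916).

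Trib1 changed least, with a 4.60-fold range between its group means against 17.7-fold for Trib2 and 29.7-fold for Trib3. In WT cells it was the member whose response to halofuginone and Tg pulled in different directions. Its WT DMSO libraries stood at 20.3, 14.4 and 23.3 CPM. Tg gave 12.8, 12.2 and 14.6 CPM. Halofuginone gave 31.6, 30.1 and 40.3 CPM, and with Tg added 29.0, 28.6 and 38.0 CPM. Both halofuginone groups lay above all other WT libraries, while the Tg libraries overlapped DMSO through replicate 2 of DMSO. Trib1 fell by 0.55 (SE 0.15, edgeR adjusted p = 0.00289) with Tg and was higher by 0.82 (SE 0.15, 1.76-fold, adjusted p = 1.12e-05) with halofuginone. Over Tg alone, halofuginone with Tg was higher by 1.27 (SE 0.15, 2.41-fold, adjusted p = 3.19e-08), and over halofuginone alone the difference was -0.09 (SE 0.14, adjusted p = 0.750).

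PERK -/- cells started from a higher Trib1 level and lost more of it under Tg. DMSO gave 31.9, 29.2 and 31.0 CPM, above all WT DMSO libraries. Tg gave 10.5, 10.6 and 11.8 CPM, and halofuginone 28.9, 32.3 and 31.4 CPM. Trib1 fell by 1.48 (SE 0.15, 2.79-fold lower, edgeR adjusted p = 3.56e-09) with Tg, and the difference with halofuginone was 0.01 (SE 0.14, adjusted p = 0.993). The PERK -/- minus WT response was -0.94 (SE 0.21, adjusted p = 0.000562) for Tg and -0.81 (SE 0.20, adjusted p = 0.00249) for halofuginone. With halofuginone and Tg together Trib1 stood at 13.6, 15.0 and 15.5 CPM, which was 0.42 (SE 0.15, adjusted p = 0.0181) above Tg and 1.07 (SE 0.15, adjusted p = 4.10e-06) below halofuginone in log2 units. The first of these calls was lost without PERK -/- Tg replicate 1 (0.39, adjusted p = 0.0592). The step over Tg was smaller than in WT cells by 0.85 (SE 0.21, adjusted p = 0.00188).

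With BtdCPU alone, Trib1 stood close to the threshold in both genotypes, and its call depended on the fit. BtdCPU gave 13.7, 16.2 and 14.9 CPM in WT and 24.3, 20.7 and 23.0 CPM in PERK -/- cells. The log2 differences from DMSO were -0.37 (SE 0.15, edgeR adjusted p = 0.0726) and -0.44 (SE 0.14, adjusted p = 0.0942), and they differed between genotypes by -0.07 (SE 0.21, adjusted p = 0.958). Neither passed in this fit. The WT difference passed without WT BtdCPU replicate 2 (-0.43, adjusted p = 0.0477), without WT DMSO replicate 2 (-0.54, adjusted p = 0.0102), with library totals only (-0.43, adjusted p = 0.0235) and with the replicate block (-0.34, adjusted p = 0.0253). The PERK -/- difference passed with the block (-0.44, adjusted p = 0.0126), in a fit of the compared libraries (-0.44, adjusted p = 0.0118) and with DESeq2 (-0.44, adjusted p = 0.0494). BtdCPU with Tg gave the lowest levels of the gene within each genotype, 11.7, 9.80 and 10.5 CPM in WT and 7.22, 6.02 and 8.92 CPM in PERK -/- cells. These WT libraries overlapped the PERK -/- Tg libraries. Without PERK the value was 0.57 (SE 0.15, adjusted p = 0.00352) below Tg alone and 1.62 (SE 0.15, adjusted p = 1.67e-09) below BtdCPU alone in log2 units, and without PERK -/- BtdCPU with Tg replicate 2 the first difference no longer passed (-0.41, adjusted p = 0.0597). The WT value was 0.49 (SE 0.15, adjusted p = 0.00855) below BtdCPU alone, and its difference from Tg alone was -0.31 (SE 0.15, adjusted p = 0.278). That last difference did not pass, although the WT groups did not overlap and Trib1 was lower in every pair of same-numbered libraries. The genotypes' steps over Tg differed by -0.26 (SE 0.21, adjusted p = 0.436).

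**Figure D2:**
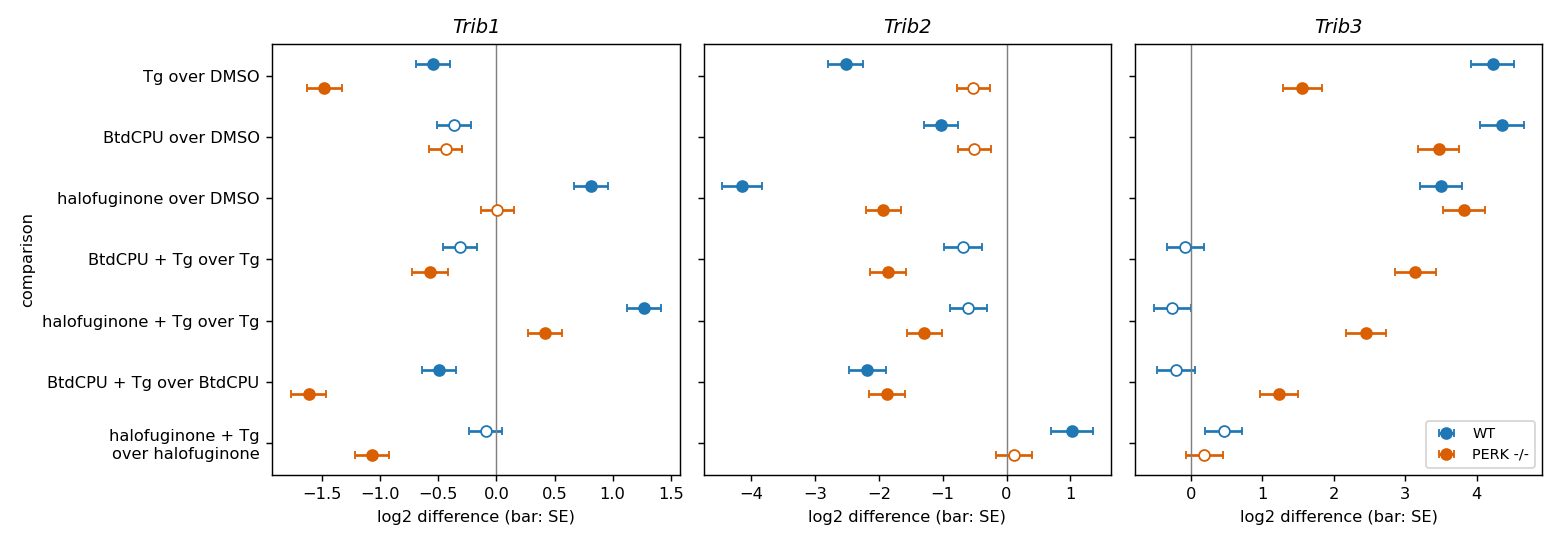
Log2 difference (x axis, bar: standard error) of each gene in 7 within-genotype comparisons (y axis), for WT in blue and PERK -/- in orange. Filled points passed an edgeR adjusted p of 0.05 and open points did not. In the 2 comparisons with Tg as the baseline, Trib3 lay near 0 in WT cells (-0.07 and -0.26) and at 3.14 and 2.46 in PERK -/- cells.

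How often a gene of any kind passed the same test differs widely between comparisons, so the counts of the 3 members are read beside it. In WT cells, Tg moved 3 of 3 members where 47.6% of the 16065 tested genes passed, BtdCPU 2 of 3 where 22.2% passed (30.8% without WT BtdCPU replicate 2, 10.8% without replicate 1 and 11.9% without replicate 3), and halofuginone 3 of 3 where 68.2% passed. Without PERK, Tg moved 2 of 3 (27.9% of all genes), BtdCPU 1 of 3 (3.59%) and halofuginone 2 of 3 (42.2%). The 1 member past the threshold among the 3.59% was Trib3. Over Tg, BtdCPU moved 0 of 3 in WT (2.32%, 372 genes, or 2079 genes with the replicate number as a block) and 3 of 3 in PERK -/- cells (35.6%), and halofuginone moved 1 of 3 in WT (45.3%) and 3 of 3 in PERK -/- cells (52.7%). The 3 members of the WT comparison of BtdCPU with Tg against Tg also had unadjusted p-values of 0.784 for Trib3, 0.0440 for Trib1 and 0.0261 for Trib2, and none passed with DESeq2 or with the block. Tg added to BtdCPU moved 2 of 3 in WT (40.4%) and 3 of 3 in PERK -/- cells (16.8%). Tg added to halofuginone moved 1 of 3 in WT (14.0%, 2242 genes, or 3929 with the block) and 1 of 3 in PERK -/- cells (6.43%). For the difference between genotypes in a response, the counts were 3 of 3 for Tg (38.1%), 0 of 3 for BtdCPU (0.199%, or 5.13% without WT BtdCPU replicate 2), 2 of 3 for halofuginone (35.0%), 2 of 3 for BtdCPU over Tg (20.8%) and 2 of 3 for halofuginone over Tg (32.7%).

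Set directly against each other, the 2 genotypes showed their largest difference among the members in Trib3 under Tg. In DMSO, Trib1 was 0.67 higher in PERK -/- cells (SE 0.15, edgeR adjusted p = 0.000282), while Trib2 (-0.52, adjusted p = 0.0913) and Trib3 (0.19, adjusted p = 0.616) did not pass, so that 1 of 3 members passed beside 49.5% of all genes. Under Tg, Trib3 was 2.48 lower (SE 0.28, 5.57-fold, adjusted p = 3.12e-09) and Trib2 1.48 higher (SE 0.28, 2.78-fold, adjusted p = 2.39e-05), and Trib1 differed by -0.27 (adjusted p = 0.116), which makes 2 of 3 beside 65.6%. Under halofuginone, Trib2 was 1.69 higher (SE 0.32, adjusted p = 2.73e-05), Trib3 0.51 (SE 0.26, adjusted p = 0.0880) and Trib1 -0.14 (adjusted p = 0.397) did not pass, and 65.9% of all genes did. Trib3 passed without WT halofuginone replicate 2 (0.68, adjusted p = 0.0471), with library totals only (0.66, adjusted p = 0.0309), in a fit of the compared libraries (0.54, adjusted p = 0.0329) and without a filter (0.54, adjusted p = 2.52e-05).

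Under BtdCPU, Trib1 was 0.60 higher in PERK -/- cells (SE 0.15, edgeR adjusted p = 0.000999), and Trib2 did not differ past the threshold (0.00, SE 0.26, or 0.52, adjusted p = 0.0812, without WT BtdCPU replicate 2), beside 53.0% of all genes. Trib3 was 0.70 lower (SE 0.26, adjusted p = 0.0238), but the groups overlapped through WT BtdCPU replicate 2. Without that library the value was -0.97, and the call was lost without WT BtdCPU replicate 1 (-0.49, adjusted p = 0.161) or 3 (-0.61, adjusted p = 0.0900), without PERK -/- BtdCPU replicate 2 (-0.68) or 3 (-0.63), and when library totals were used without scaling factors (-0.56, adjusted p = 0.0782). Under BtdCPU with Tg, Trib3 was 0.74 higher (SE 0.26, adjusted p = 0.0161) and Trib1 0.53 lower (SE 0.15, adjusted p = 0.00371). The Trib1 call was lost without PERK -/- BtdCPU with Tg replicate 2 (-0.35, adjusted p = 0.0679). Trib2 differed by 0.31 (adjusted p = 0.378), beside 60.3%. The replicate block was set within each genotype, so its genotype difference stands for replicate number 1. For Trib3 that difference was 0.65 (adjusted p = 0.0641), which is not a test of the group means. Under halofuginone with Tg, Trib1 was 1.12 lower (SE 0.15, adjusted p = 1.02e-07) and Trib2 0.78 higher (SE 0.29, adjusted p = 0.0196), the latter lost without PERK -/- halofuginone with Tg replicate 1 (0.69, adjusted p = 0.0664), and Trib3 differed by 0.24 (adjusted p = 0.441), beside 62.1%.

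Ordered by group mean, the levels show which groups overlap their neighbours. For Trib3 the libraries of the 2 DMSO groups overlapped, PERK -/- Tg (40.3 ± 9.22 CPM, SD, n = 3) stood apart above them, the 8 groups from WT halofuginone (136.3 ± 39.3 CPM) to WT BtdCPU (245.8 ± 87.5 CPM) each overlapped the next, and PERK -/- BtdCPU with Tg (355.5 ± 16.1 CPM) stood apart at the top. For Trib2 the order began with WT halofuginone (0.944 ± 0.381 CPM), separate from WT BtdCPU with Tg (1.82 ± 0.340 CPM), and ended with PERK -/- DMSO (11.7 ± 0.347 CPM) and WT DMSO (16.8 ± 1.45 CPM), each separate from its neighbour. PERK -/- DMSO (11.5 to 12.1 CPM) still did not stand alone, since it lay within the range of WT BtdCPU (4.45 to 13.1 CPM). Trib1 ran from PERK -/- BtdCPU with Tg (7.39 ± 1.46 CPM) to WT halofuginone (34.0 ± 5.49 CPM), and the 4 highest groups overlapped in sequence. Per kilobase of exon (GENCODE M21), the WT DMSO levels were 3.09 CPM per kb for Trib1, 3.86 for Trib2 and 5.63 for Trib3. In WT halofuginone libraries the levels per kb were 5.44, 0.218 and 64.1 CPM in the same order. In bulk samples, fewer cells expressing a gene and less of its RNA per cell cannot be told apart. Trib2 overlaps the microRNA gene Mir6387 on the same strand, whose reads could not be separated from it here.

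Factors that act on the Trib3 promoter in stress were counted from a list of 7: Atf4, Ddit3 (CHOP), Cebpb, Cebpg, Atf3, Atf5 and Nupr1. All 7 rose with Tg, BtdCPU and halofuginone in WT cells (median log2 differences 1.97, 1.48 and 2.33, against 0.02, -0.01 and 0.00 over all tested genes). Of all tested genes, 47.6%, 22.2% and 68.2% passed in these comparisons, in either direction. Of the same 7, in PERK -/- cells 4 rose with Tg (median 0.48), and all 7 with BtdCPU (0.88) and halofuginone (1.69), beside 27.9%, 3.59% and 42.2%. Over Tg in PERK -/- cells, 7 of 7 rose with BtdCPU (35.6%) and 6 of 7 with halofuginone (52.7%). Over Tg in WT cells, 0 of 7 moved with BtdCPU (2.32%), and with halofuginone 2 rose and 2 fell (45.3%).

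Single members of that list did not all follow the order of Trib3. Ddit3, which encodes CHOP, a factor that activates Trib3, stood at 13.6 ± 2.62 CPM in WT DMSO and 345.0 ± 35.9 CPM in WT Tg (SD, n = 3). Ddit3 in PERK -/- cells stood at 20.8 ± 1.99 CPM in DMSO, 47.8 ± 12.3 CPM with Tg and 395.6 ± 19.8 CPM with BtdCPU and Tg, its highest group mean, as for Trib3. The PERK -/- minus WT response of Ddit3 to Tg was -3.46 (SE 0.30, edgeR adjusted p = 1.89e-10). Atf4, whose protein output is raised by translation when eIF2 alpha is phosphorylated, was 0.69 higher in PERK -/- DMSO than WT DMSO (SE 0.11, adjusted p = 2.67e-06), where Trib3 did not differ past the threshold. Atf3 had the largest rise of the list in WT cells with Tg, 6.17, and with halofuginone, 7.04. Atf5, another stress bZIP factor, was lower in PERK -/- than in WT cells in DMSO, BtdCPU, BtdCPU with Tg, halofuginone and halofuginone with Tg, by 1.28 to 1.94 log2 units, treatments where Trib3 was lower only with BtdCPU. In those comparisons 49.5% (DMSO) to 65.9% (halofuginone) of all genes passed in either direction. Under Tg, Trib3 was also lower, and so were all 7 factors, where 65.6% of all genes passed in either direction. Atf5 stood there at 81.2 ± 10.9 CPM in PERK -/- and 377.9 ± 24.9 CPM in WT cells (SD, n = 3).

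A list of 10 other ATF4 targets (Asns, Chac1, Psat1, Sesn2, Ddit4, Ppp1r15a, Vldlr, Slc7a11, Fgf21 and Adm2) was placed beside Trib3 in each library. This list and Trib3 belong to the same known response, so their shared rise is no independent evidence. With Tg, BtdCPU and halofuginone, 10, 9 and 9 of 10 rose in WT cells, where 47.6%, 22.2% and 68.2% of all genes passed. In PERK -/- cells 7, 9 and 9 rose, beside 27.9%, 3.59% and 42.2%. Ddit4, an inhibitor of mTORC1, fell with halofuginone in WT cells (-0.98, SE 0.27, edgeR adjusted p = 0.00181). In the 3 WT Tg libraries the mean of the list was 3.31, 3.29 and 3.14 log2 units above WT DMSO and Trib3 was 4.53, 4.41 and 4.10 above it. In the 3 PERK -/- libraries with BtdCPU and Tg the list was at 2.68, 2.65 and 2.70 and Trib3 at 4.97, 4.99 and 5.09. Trib3 was higher, and the mean of the other targets lower, than in WT Tg, with no overlap in either measure. This compares levels and not rises over the DMSO of each genotype. In the PERK -/- DMSO libraries the list stood at -0.018, -0.185 and -0.560. The targets were split, since 4 of the 10 had a higher group mean than in WT Tg, as Trib3 did. These were Ppp1r15a (425.9 against 328.5 CPM), Asns (1143 against 848.5 CPM), Psat1 (949.7 against 688.6 CPM) and Chac1 (129.3 against 122.7 CPM). The Chac1 libraries overlapped between the groups. Asns and Psat1 were also higher in PERK -/- DMSO (431.6 and 643.4 CPM) than in WT DMSO (223.8 and 350.5 CPM). Over the DMSO mean of their own genotype, Asns, Psat1 and Chac1 stood 2.65, 1.48 and 12.9-fold higher, against 3.79, 1.97 and 16.6-fold in WT Tg. Among the 6 lower ones, Vldlr stood at 34.2 against 148.0 CPM and Ddit4 at 26.5 against 99.0 CPM, and both were also lower in PERK -/- DMSO (3.91 and 17.2 CPM) than in WT DMSO (28.7 and 42.8 CPM). Sesn2, also lower (72.0 against 102.3 CPM), stood 5.25-fold above its own DMSO mean, against 3.04-fold in WT Tg. The split of the targets therefore depends on whether levels or rises over DMSO are compared.

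**Figure D3:**
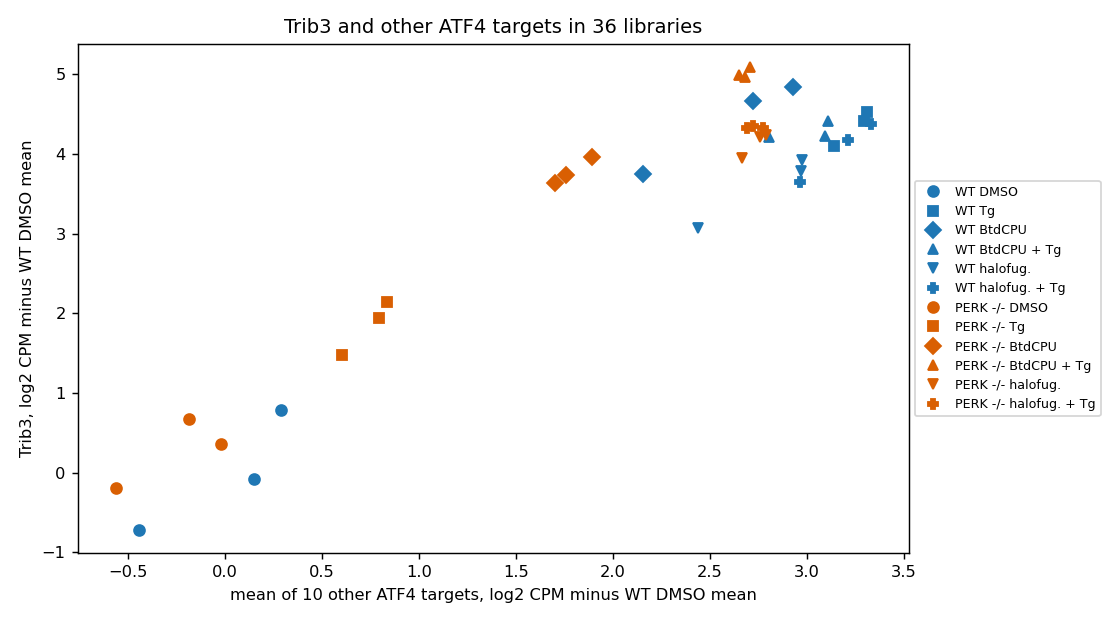
Trib3 (y axis) against the mean of 10 other ATF4 target genes (x axis) in each of the 36 libraries, both as log2 CPM minus the WT DMSO mean. Colours mark the genotype and symbols the treatment. The 3 PERK -/- libraries with BtdCPU and Tg lie highest (4.97 to 5.09) although the WT Tg libraries lie further right (3.14 to 3.31).

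Components of the COP1 ubiquitin ligase, through which Tribbles proteins act, were counted from a list. Of 7 components (COP1, listed in the table as Rfwd2, with Det1, Dda1, Ddb1, Cul4a, Cul4b and Rbx1), 1 rose and 1 fell with Tg, 1 rose with BtdCPU, and 3 rose and 4 fell with halofuginone in WT cells, where 47.6%, 22.2% and 68.2% of all genes passed. Among PERK -/- libraries 0 moved with Tg, 1 rose with BtdCPU, and 2 rose and 3 fell with halofuginone, beside 27.9%, 3.59% and 42.2% of all genes. Rfwd2 was lower in PERK -/- than in WT cells under all 6 treatments, by 0.31 to 0.88 log2 units, for example 9.50 ± 0.580 against 17.5 ± 2.16 CPM in DMSO (SD, n = 3). In these genotype comparisons 49.5% (DMSO) to 65.9% (halofuginone) of all genes passed in either direction. Det1, an adaptor of the ligase, was the component with the largest rise in each comparison with DMSO in which any rose, and in WT cells it went from 21.5 ± 1.48 CPM in DMSO to 38.9 ± 3.29 with Tg and 47.7 ± 7.04 with halofuginone.

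Stk40, a related pseudokinase that also binds COP1, had a pattern of its own. In WT cells it stood at 13.3 ± 2.40 CPM in DMSO, 24.3 ± 2.18 with Tg, 27.3 ± 1.58 with BtdCPU and 128.3 ± 11.1 with halofuginone (SD, n = 3). Stk40 in PERK -/- cells stood at 12.02 ± 1.12, 7.69 ± 0.277, 17.8 ± 0.408 and 49.3 ± 4.60 CPM. Halofuginone raised Stk40 by 3.27 (SE 0.11, edgeR adjusted p = 1.99e-20) in WT and by 2.04 (SE 0.11, adjusted p = 3.07e-15) in PERK -/- cells. With Tg it rose by 0.87 (SE 0.11, adjusted p = 6.17e-08) in WT and fell by 0.65 (SE 0.11, adjusted p = 3.36e-05) in PERK -/- cells, and the difference between these responses was -1.52 (SE 0.15, adjusted p = 3.58e-09).

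**Figure D4:**
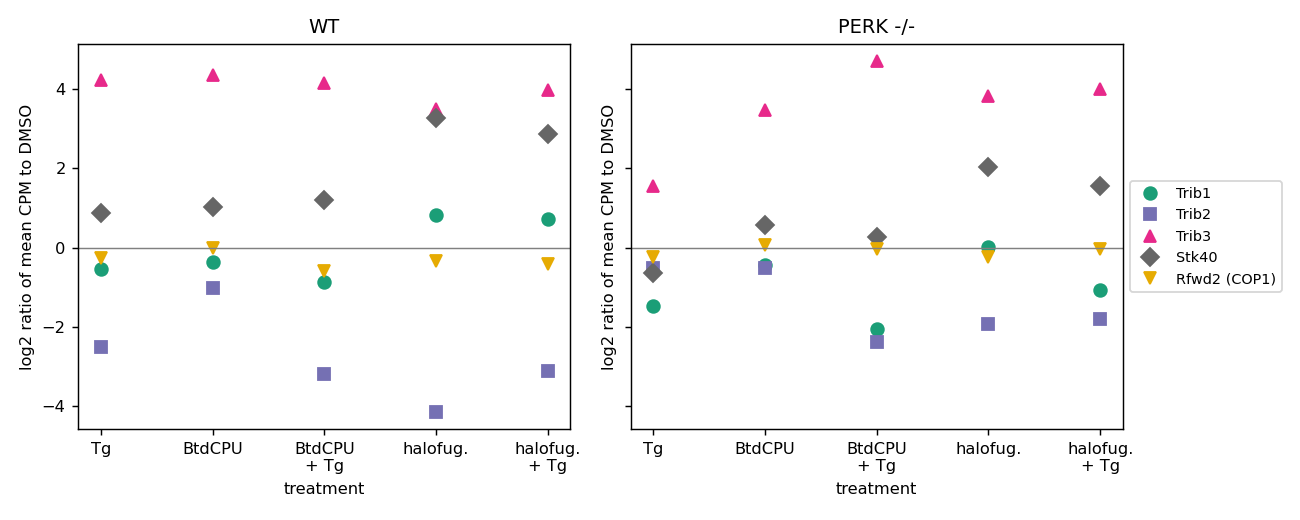
Log2 ratio of the group mean CPM to the DMSO mean of the same genotype (y axis) for Trib1, Trib2, Trib3, the related pseudokinase Stk40 and Rfwd2 (COP1), by treatment (x axis), in WT (left) and PERK -/- cells (right). Each symbol is 1 gene in 1 group. Trib3 lies above 0 and Trib2 below 0 in all 10 treated groups, and Rfwd2 stays closest to 0 over most treatments.

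Known binding partners and substrates of Tribbles proteins, 13 genes with Sqstm1, Akt1, Cebpa, Map2k1 and Foxo3 among them, were called in both directions in most comparisons. The list also holds Atf4 and Cebpb, already counted among the factors that act on Trib3. Both are among the rises below with BtdCPU and halofuginone in both genotypes, and with Tg in WT cells. With Tg 4 rose and 4 fell in WT, and 4 rose and 2 fell in PERK -/- cells, beside 47.6% and 27.9% of all genes. With BtdCPU 4 rose and 1 fell in WT, and 3 rose and 0 fell in PERK -/- cells, beside 22.2% and 3.59%. With halofuginone 5 rose and 5 fell in both genotypes, beside 68.2% of all genes in WT and 42.2% in PERK -/- cells. Sqstm1, the autophagy receptor p62, rose by 1.90 with Tg (SE 0.14, edgeR adjusted p = 7.97e-13) and 2.26 with halofuginone (SE 0.14, adjusted p = 5.34e-15) in WT cells. Akt1, a kinase that Trib3 binds, went from 625.1 ± 42.9 CPM in WT DMSO to 329.1 ± 34.7 with Tg and 267.9 ± 15.5 with halofuginone (SD, n = 3). Cebpa, the substrate of Trib1 and Trib2 in blood cells, was low in these fibroblasts, at 2.83 ± 0.110 CPM in WT DMSO and 0.482 ± 0.135 CPM in PERK -/- DMSO, and was lower in PERK -/- cells under all 6 treatments. Between the genotypes 49.5% (DMSO) to 65.9% (halofuginone) of all genes passed in either direction.

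Genes whose 12 group means of log2 CPM followed each member most closely were taken from 11056 genes averaging at least 1 log2 CPM. These correlations share libraries and cell lines and are given as a description. Trib1 was closest to Map2k3, which encodes a kinase upstream of p38 (Pearson r = 0.976), Gm14005 (0.926) and Nipa2 (0.917). Trib2 was closest to Kctd17 (0.966), Ccsap (0.946) and Ada, adenosine deaminase (0.938). Trib3 was closest to Slc38a7, an amino acid transporter of the lysosome (0.968), Adm2, a secreted peptide (0.961), and Mthfd2, a mitochondrial folate enzyme (0.959). Ranked by Spearman's rho, the 3 closest were other genes, except that Gm14005 and Map2k3, the latter tied with Dusp5, stayed among those of Trib1. Between the members, r was -0.01 for Trib1 and Trib2, -0.29 for Trib1 and Trib3, and -0.71 for Trib2 and Trib3, with Spearman's rho of -0.01, -0.49 and -0.47. Trib3 followed Ddit3 (0.952), Cebpb (0.951) and Atf4 (0.889), with Spearman's rho of 0.804, 0.867 and 0.783. By rho, Slc38a7, Adm2 and Mthfd2 stood at places 110, 186 and 33 for Trib3 (0.755, 0.699 and 0.839).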

How the data were processed

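Bulk RNA-seq of 36 libraries of mouse embryonic fibroblasts was analysed from 1 table. The authors deposited estimated counts per gene, unscaled between libraries. Per the labels' protocols, the libraries were strand-specific. The submitters' processing notes name GRCm39 and DESeq, and the aligner, counter and annotation are not given in the sources used here. Of the 36930 entries, 27 named by a date number were left out (0.206% to 0.278% of a library's counts), repeated symbols were summed to 36856, the value 0.025 that stands for 0 was set to 0, and counts were rounded to whole numbers.

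Groups came from the titles, with 3 libraries each. Genes were filtered with filterByExpr, which left 16065, all 3 members among them, scaled by TMM and fitted with 12 group means in edgeR 4.0.16 (R 4.3.3), with the robust quasi-likelihood test and a common dispersion of 0.0199. Within each of the 25 contrasts, Benjamini-Hochberg adjustment covered all tested genes, and a gene was called below an adjusted p of 0.05. The fit was tested on simulated data. BtdCPU and halofuginone are set side by side without a test, since no dose or time is given. Named genes were the 3 members, Atf4, Ddit3, Cebpb, Cop1 and Stk40, at most the 2 largest rises and falls per list and comparison, and the 3 genes most like each member. Members and lists were chosen with earlier results of these data known. Alternatives were RLE scaling, no scaling factors, no filter, only the compared groups, DESeq2 1.42.0, a replicate block, each library left out, Spearman's rho for likeness and a motif search of the gene's strand only. Deviations of same-numbered libraries correlated above 0.1 for every number in 3 comparisons within WT cells (BtdCPU with Tg against Tg, 0.159 to 0.337, and halofuginone with Tg against Tg, 0.162 to 0.308, and against halofuginone, 0.218 to 0.502). The numbers were treated as pairs there, and in the other comparisons as numbers only. The pairing is inferred from these correlations, since the labels do not give the source of the replicates.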

Additional observations from a re-analysis of the deposited data

Results flagged for a closer look

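The response of PERK -/- cells differed from that of WT cells by a tested interaction in 9 of 15 combinations of member and response, all log2 differences with edgeR adjusted p below 0.05. For Tg over DMSO the values were -0.94 for Trib1, 2.00 for Trib2 and -2.66 for Trib3, where 38.1% of all genes passed. For halofuginone over DMSO they were -0.81 for Trib1 and 2.21 for Trib2 (35.0%). For BtdCPU with Tg over Tg they were -1.17 for Trib2 and 3.21 for Trib3 (20.8%). That Trib2 call was lost when single libraries were left out (-0.91, adjusted p = 0.139, without PERK -/- BtdCPU with Tg replicate 3). For halofuginone with Tg over Tg they were -0.85 for Trib1 and 2.71 for Trib3 (32.7%). For BtdCPU over DMSO no member passed (0.199%).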

How the results depend on the processing

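Across the alternatives, no member changed direction in a comparison where it was called. RLE scaling changed no call of a member. With library totals only, Trib1 passed for BtdCPU in WT (-0.43) and Trib3 for PERK -/- against WT in halofuginone (0.66), and Trib3 no longer passed for PERK -/- against WT in BtdCPU (-0.56). Without a filter, 7 member values passed in addition: Trib2 -0.64 and Trib3 -0.30 for halofuginone with Tg over Tg in WT, Trib3 0.45 for Tg added to halofuginone in WT, Trib2 -0.55 for Tg in PERK -/-, and, for PERK -/- against WT, Trib2 -0.56 in DMSO, Trib3 0.54 in halofuginone and Trib3 -0.88 in the BtdCPU response. With the replicate block, Trib1 passed for BtdCPU in WT (-0.34) and PERK -/- (-0.44). The block was set within each genotype, so its PERK -/- against WT difference stands for replicate number 1. For Trib3 in BtdCPU with Tg that difference was 0.65 and did not pass, which is not a test of the group means. Where the numbers were treated as pairs, the block changed no member's call. Fitted on the compared groups only, Trib2 no longer passed for BtdCPU in WT (-1.03) or Tg added to halofuginone in WT (1.04), while Trib2 passed for Tg (-0.56) and BtdCPU (-0.50) and Trib1 for BtdCPU (-0.44) in PERK -/-, and, for PERK -/- against WT, Trib2 in DMSO (-0.53) and Trib3 in halofuginone (0.54). DESeq2 added Trib1 for BtdCPU in PERK -/- (-0.44).

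Leaving out 1 library at a time, the values whose call changed ranged from -0.54 to -0.21 for Trib1 and from -1.54 to -0.73 for Trib2 with BtdCPU in WT, from 0.74 to 1.35 for Trib2 with Tg added to halofuginone in WT, from -0.69 to -0.41 (BtdCPU) and 0.39 to 0.51 (halofuginone) for Trib1 over Tg in PERK -/-, and from -1.37 to -0.91 for Trib2 in the difference between genotypes for BtdCPU over Tg. For PERK -/- against WT they ranged from -0.97 to -0.49 for Trib3 in BtdCPU, 0.33 to 0.68 for Trib3 in halofuginone, -0.64 to -0.35 for Trib1 in BtdCPU with Tg and 0.69 to 0.94 for Trib2 in halofuginone with Tg. Each such fit was scaled anew, and the reference library of TMM could change.

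Counts over all genes moved more than the members. For BtdCPU with Tg over Tg in WT, 372 genes became 813 without a filter, 2079 with the block, 23 in the compared groups only and 866 with DESeq2. For BtdCPU in WT, 3571 became 5534 with the block and 835 in the compared groups. For BtdCPU in PERK -/-, 577 became 1577, 1265 and, with DESeq2, 877. For Tg added to halofuginone, 2242 in WT became 3929 and 770, and 1033 in PERK -/- became 1966 with the block. For Tg added to BtdCPU in PERK -/-, 2701 became 4318 and 4277. For the BtdCPU response between genotypes, 32 became 314 without a filter, 587, 2 and, with DESeq2, 161. Leaving out 1 library gave 41 to 331 for BtdCPU with Tg over Tg in WT, 1780 to 5062 for BtdCPU in WT, 326 to 405 in PERK -/-, 1374 to 2220 for Tg added to halofuginone in WT and 14 to 845 for the BtdCPU response between genotypes. With library totals only, the median of all genes moved by over 0.1 to 0.139 for Tg added to BtdCPU and -0.110 for halofuginone in WT, to 0.151 in BtdCPU, 0.126 in halofuginone and 0.0473 (from -0.0539) in halofuginone with Tg for PERK -/- against WT, and to 0.104 for the halofuginone response between genotypes. The share of calls that were higher then moved from 51.7% to 65.4% for Tg added to BtdCPU, 58.1% to 45.1% for BtdCPU, 55.9% to 80.7% for BtdCPU with Tg over Tg and 58.3% to 76.2% for Tg added to halofuginone in WT, 48.9% to 59.8% for PERK -/- against WT in BtdCPU, and 51.6% to 41.4% for the difference between genotypes in BtdCPU with Tg over Tg. Searched on the strand of the gene only, TGATGNAA had no match in Trib3 and was held by 2.13% of windows. The causes were not tested.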
